A study of Homo sapiens with 24 samples.

Results

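The transcriptional response to IFNγ was examined in cells in which PD-L1 had been silenced with siRNA, in the libraries labelled 786-O. These were chosen by their labels as the 3 PD-L1si IFNγ libraries set against the 3 PD-L1si libraries, which are 6 of the 24 libraries of the study. 786-O and A498 are established human lines derived from clear cell renal carcinoma (ccRCC), and each was sequenced in 4 groups of 3 replicates. The Cnsi group received a non-targeting pool of siRNA and no IFNγ, Cnsi IFNγ received the same siRNA and IFNγ, PD-L1si received a pool of siRNAs against PD-L1 and no IFNγ, and PD-L1si IFNγ received both. The siRNA was used at 20 nM, and IFNγ was added 24 hours later at 50 ng/mL for 24 hours. All groups therefore carried a transfected siRNA, and the silencing was transient, although the labels speak of a knockout. The labels give all 4 groups, whereas the methods of the study name only 3 for RNA extraction, without PD-L1si. The labels do not say whether replicates came from separate cultures, so that the p-values measure the spread between these libraries, which may be technical.

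Several features of the table bear on what could be measured. Transcripts that tell the lines apart went against the label of the line in 24 of 24 libraries, so the libraries are named here only by their labels, and the methods of the study give a different sequencer for each line, so that line and sequencer cannot be told apart. Of 39321 genes in the table, 4670 were at 0 in all 12 libraries labelled 786-O and were not measured there. Of these, 1475 had over 1000 counts in the libraries labelled A498, including *IFNGR1*, *IFNGR2*, *JAK2* and *STAT3* of the IFNγ pathway itself. The total counts were 27710032, 28835798 and 28584557 in the PD-L1si libraries and 27024430, 30350461 and 29054518 in the PD-L1si IFNγ libraries. Replicate 1 of PD-L1si stood somewhat apart, with 9.84% of its counts on mitochondrial genes against 6.05% and 6.61% in the other replicates and 6.1% to 6.74% in the PD-L1si IFNγ libraries. Renal epithelial markers such as *KRT8*, *VIM* and *PAX8* were present in every library, while *PAX2* was among the genes at 0.

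IFNγ is a cytokine of activated T cells and natural killer cells. It binds the receptor encoded by *IFNGR1* and *IFNGR2*, whose kinases JAK1 and JAK2 switch on a signal that acts through the GAS element in DNA. Among the first genes induced are transcription factors such as IRF1, which act through the related ISRE element and pass the signal on to antigen presentation, chemokine and antiviral genes. PD-L1, encoded by *CD274*, is itself such a target and inhibits T cells through their receptor PD-1.

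The promoters of 4 genes on which the results turn are shown to place these elements, since they hold a GAS, an ISRE or both. The windows run from 250 bases before to 50 bases after the RefSeq start (GRCh38.p14) and are written 5′ to 3′ on the strand of the gene. Capitals mark matches on either strand to GAS (TTCNNNGAA) or ISRE (GAAA, any 2 bases and GAAA). *CD274* lies on the plus strand (chr9:5450292-5450591), *IRF1* on the minus strand (chr5:132490724-132491023), *CXCL9* on the minus strand (chr4:76007460-76007759) and *GBP4* on the minus strand (chr1:89198893-89199192).
CD274: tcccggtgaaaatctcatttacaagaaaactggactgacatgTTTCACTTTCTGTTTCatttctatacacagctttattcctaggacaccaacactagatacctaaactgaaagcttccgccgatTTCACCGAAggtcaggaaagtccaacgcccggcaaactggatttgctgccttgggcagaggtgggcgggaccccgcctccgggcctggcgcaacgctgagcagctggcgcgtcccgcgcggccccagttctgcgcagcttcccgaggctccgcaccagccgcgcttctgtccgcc
IRF1: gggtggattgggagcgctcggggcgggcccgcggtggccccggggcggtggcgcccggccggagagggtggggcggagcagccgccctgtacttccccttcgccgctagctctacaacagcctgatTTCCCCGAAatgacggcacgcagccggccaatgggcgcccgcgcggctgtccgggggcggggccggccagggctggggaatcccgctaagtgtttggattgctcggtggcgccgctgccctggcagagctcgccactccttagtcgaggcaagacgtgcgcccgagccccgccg
CXCL9: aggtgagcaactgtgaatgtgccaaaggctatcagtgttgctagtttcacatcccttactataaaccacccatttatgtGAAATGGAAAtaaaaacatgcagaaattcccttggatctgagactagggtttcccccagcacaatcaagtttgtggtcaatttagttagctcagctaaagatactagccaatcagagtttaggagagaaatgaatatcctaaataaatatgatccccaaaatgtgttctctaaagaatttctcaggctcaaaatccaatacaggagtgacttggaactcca
GBP4: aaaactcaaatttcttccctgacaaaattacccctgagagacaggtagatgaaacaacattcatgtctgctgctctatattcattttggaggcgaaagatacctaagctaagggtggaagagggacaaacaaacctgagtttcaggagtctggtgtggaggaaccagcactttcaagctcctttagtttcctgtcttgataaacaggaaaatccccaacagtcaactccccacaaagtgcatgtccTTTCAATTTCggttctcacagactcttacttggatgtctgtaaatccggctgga
In *CD274* a GAS match began 125 bases before the start, and 2 ISRE matches that overlap each other began 208 and 202 bases before it. In *IRF1* a GAS match began 124 bases before the start, and *CXCL9* and *GBP4* had an ISRE match 171 and 4 bases before it. Of the 24 protein-coding genes named below for the largest rises and falls, 17 had a promoter in the RefSeq table. Over the tested genes with a single promoter there, an ISRE match was found in 9.9% of the 990 genes that rose, in 2.34% of the 7216 genes that were not called and in 1.98% of the 707 genes that fell. The share was 21.5% among the 274 genes that rose by over 2 on the log2 scale, against 3.57% of all 35116 promoters of the table. A GAS match was found in 9.6%, 6.37% and 3.68% of the genes that rose, were not called and fell, in 11.7% of those that rose by over 2, and in 7.66% of all promoters. A match is only a description of these letters in a 300-base window. The match of letters was not tested for binding.

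*CD274* was the target of the siRNA, and IFNγ still raised it in the silenced cells. The 3 PD-L1si libraries had 42, 37 and 58 counts and the 3 PD-L1si IFNγ libraries 853, 894 and 848. In the control groups, 121, 117 and 122 counts without IFNγ stood against 1554, 1612 and 1670 with it. In every IFNγ library the gene was higher than in every library without it, and PD-L1si libraries were below the Cnsi libraries both with and without IFNγ. In CPM, the counts scaled to the library totals with TMM factors, the level rose from 1.52 ± 0.35 to 31.4 ± 1.17 (SD, n = 3), a 20.5-fold difference (log2 fold change 4.36, SE 0.11, adjusted p = 1.641e-21, edgeR quasi-likelihood test, Benjamini-Hochberg). The IFNγ effect on *CD274* was 3.89 with Cnsi, and the difference of 0.47 (SE 0.16) between these effects did not pass the threshold (adjusted p = 0.376).

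**Figure D1:**
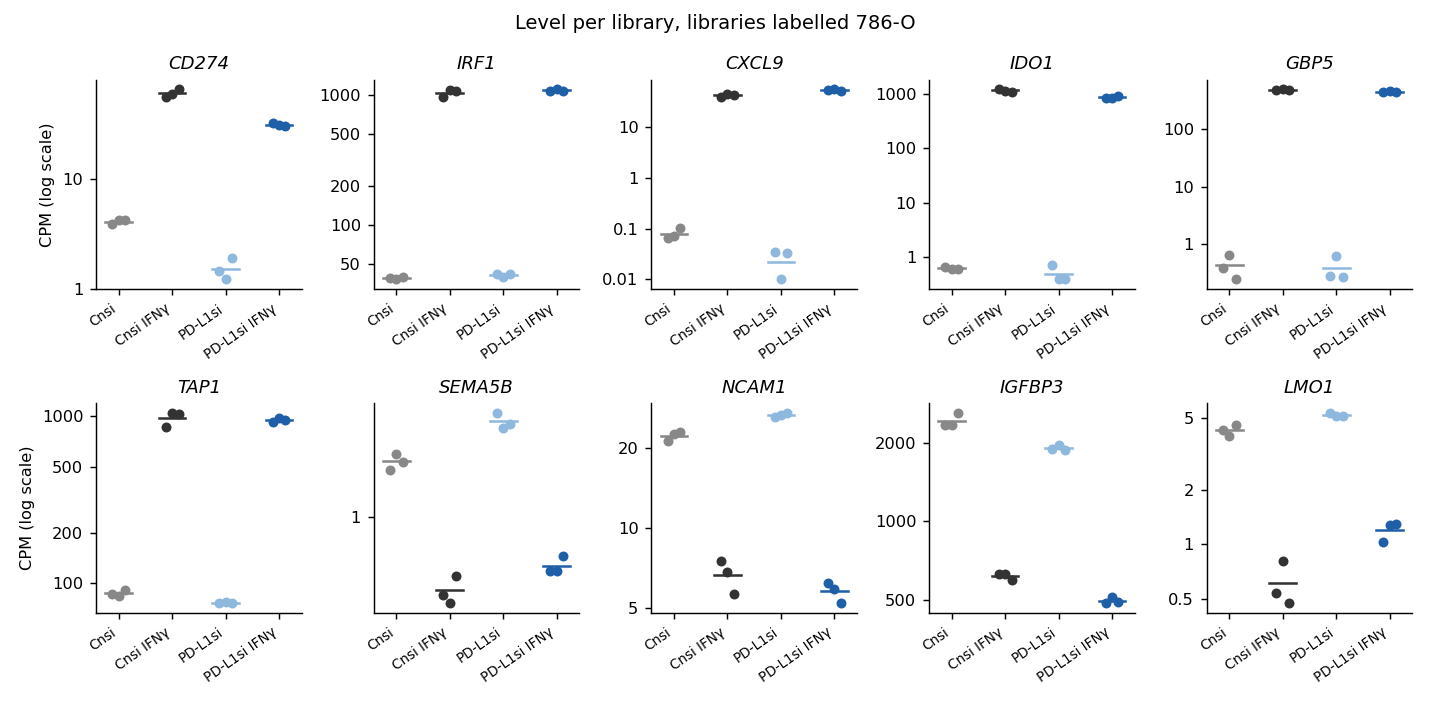
Level of 10 genes in each of the 12 libraries labelled 786-O, in CPM on a log axis, with the 4 groups on the horizontal axis, a point for each library and a line at the mean of the group (a library with 0 counts is drawn at 0.01). The IFNγ libraries lie above those without it for *CD274*, *IRF1*, *CXCL9*, *IDO1*, *GBP5* and *TAP1* and below them for *SEMA5B*, *NCAM1*, *IGFBP3* and *LMO1*, with either siRNA.

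Across all 21209 genes tested, 2332 rose (11% of those tested) and 1580 fell (7.45%), together 3912 (18.4%), at an adjusted p under 0.05 and a log2 fold change beyond 0.5. Of these, 1580 protein-coding genes and 559 long non-coding RNAs rose, and 1002 and 462 fell. Changes past a log2 fold change of 1 were more often rises, with 1278 genes higher and 573 lower. The median change over all genes tested was 0.000643, so the scaling left the bulk of genes centred. Without replicate 1 of PD-L1si, 2112 genes rose and 1618 fell. In a principal component analysis of the 12 libraries, the first component held 80.9% of the variance and separated the IFNγ libraries from the rest, and the second held 7.48% and separated the siRNAs.

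The largest rises were in genes of T cell recruitment, tryptophan breakdown and host defence that were close to silent without IFNγ. *CXCL9*, a chemokine that attracts T cells through CXCR3, had 1, 0 and 1 counts without IFNγ and 1373, 1583 and 1412 after it. The groups did not overlap, and the ratio of the summed levels was 2370 (95% exact counting interval 656 to 19576). *IDO1*, the enzyme that starts the breakdown of tryptophan to kynurenine, was at 0.728, 0.393 and 0.394 CPM with PD-L1si and at 846, 819 and 890.2 CPM with PD-L1si IFNγ. Its log2 fold change was 10.72 (adjusted p = 3.34e-30), from 21, 12 and 12 counts without IFNγ, and no replicate came near the other group. *GBP5*, a guanylate-binding protein of cell-autonomous defence, was at 0.278, 0.622 and 0.262 CPM and rose to 446, 461 and 449 CPM (log2 fold change 10.16). It had 8, 19 and 8 counts without IFNγ. An SE is not given for *IDO1* and *GBP5*, since these base counts are few. *HLA-DOA*, a chaperone of class II loading, and *APOBEC3G*, a cytidine deaminase that restricts retroviruses, had a single count among the PD-L1si libraries and 1803 and 1394 summed counts with IFNγ. Their ratios were 1957 (interval 351 to 77322) and 1513 (interval 271 to 59791), so the size of these rises is known only within wide limits. The intervals cover counting error only.

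The other protein-coding genes with the largest rises were *APOL4* (log2 fold change 9.04), *CD5L* (8.52), *ADAP1* (8.30), *GBP4* (8.11), *CXCL11* (8.10), *OR2I1P* (8.00) and *PIGR* (7.82). *CD5L*, a secreted protein best known from macrophages, also had a single count without IFNγ and 471 with it, a ratio of 511 (interval 91.3 to 20230). *PIGR*, the receptor that carries polymeric immunoglobulins across epithelia, rose from 0.156 ± 0.051 to 36.1 ± 1.91 CPM. *OR2I1P*, an olfactory receptor locus in the MHC, overlaps *UBD* on the opposite strand, which encodes the ubiquitin-like FAT10. *OR2I1P* rose from 2.21 to 568 CPM and *UBD* from 0.045 to 6.9 CPM, and reads from such a pair cannot be told apart with certainty. The 3 long non-coding RNAs with the largest rises also overlap an induced gene on the opposite strand. ENSG00000254287 in *IDO1* rose by 10.86, ENSG00000237568 in *GBP5* by 9.32 and ENSG00000284734 at *GBP4* by 8.25 on the log2 scale, with levels of 112, 31.2 and 21.6 CPM against 852, 452 and 725 CPM of the gene they overlap.

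Induced genes lay close together in several places. These stretches were chosen after the values were seen, and the counts are descriptions. Between *GBP3* and *GBP5* on chromosome 1, 9 of 9 tested genes rose, and between *CXCL9* and *CXCL11* on chromosome 4, 3 of 3. In the MHC between *HLA-F* and *HLA-DPB1* on chromosome 6, 52 of 160 tested genes rose and 2 fell, which is 32.5% higher against 11% of all genes.

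The falls were smaller than the rises. *SEMA5B*, a transmembrane semaphorin of axon guidance, was at 7.63, 5.67 and 6.1 CPM with PD-L1si and at 0.345, 0.345 and 0.469 CPM with PD-L1si IFNγ (log2 fold change -4.05, SE 0.21, adjusted p = 1.416e-14). *NCAM1*, the neural cell adhesion molecule, went from 26.3, 26.7 and 27.2 CPM to 6.21, 5.86 and 5.2 CPM (-2.22, SE 0.09). *IGFBP3*, a secreted carrier of insulin-like growth factors, was by far the most abundant of the genes with the largest falls. It went from 1894, 1961 and 1881 CPM to 487, 516 and 490.0 CPM (-1.94, SE 0.05, adjusted p = 3.745e-21), and neither group overlapped the other in any of these 3 genes. *C1orf116* (-2.42), *LONRF2* (-2.28), *LMO1* (-2.10), *ANXA13* (-2.08), *CHST2* (-1.90), *UNC5CL* (-1.87), *TNFAIP6* (-1.76), *SFRP4* (-1.76) and *GPER1* (-1.75) completed this set. LMO1 is a LIM-domain transcription cofactor, SFRP4 a secreted antagonist of Wnt signalling, TNFAIP6 a hyaluronan-binding protein, and GPER1 a membrane receptor for estrogen. Among long non-coding RNAs, *LINC01151* fell most, from 14.5 ± 0.363 to 1.14 ± 0.321 CPM (-3.66), followed by ENSG00000272384 (-3.08) and *LINC01111* (-1.99).

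The genes were then described by function, in lists of genes known for the IFNγ response and for the metabolism and surface of these cells. Counts of called members are to be read against the 11% of all genes that rose and the 7.45% that fell. The upstream pathway was the least complete. Of 15 genes of the receptor, JAK-STAT and its inhibitors, 7 were among the rows at 0, and of the 8 tested, 4 rose and 1 fell (median 0.83 against 0.000643 for all genes). *STAT2*, a transcription factor of interferon signalling, was at 77, 67.8 and 68.9 CPM with PD-L1si and at 415, 404 and 397 CPM with PD-L1si IFNγ (log2 fold change 2.51, SE 0.06). *SOCS1*, which blocks JAK kinases in a negative feedback, rose from 2.41 to 47.5 CPM (4.29, SE 0.10), and the feedback genes *USP18* (2.17) and *SOCS3* (1.16) also rose. *SOCS2*, another member of the SOCS family that is best known for limiting growth hormone signalling, fell by 1.53 on the log2 scale. *JAK1* had a value of -0.37 and *PTPN2* of 0.49, neither past the fold threshold.

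Transcription factors below the receptor rose in 14 of 15 cases (median 1.77), *IRF5* with 0.30 being the exception. *IRF1* was at 41.4, 39.2 and 41.6 CPM and rose to 1076, 1117 and 1086 CPM (log2 fold change 4.75, SE 0.06, adjusted p = 3.745e-28). *BATF2* rose by 6.99, *NLRC5*, the transactivator of class I genes, by 3.70, and *CIITA*, the transactivator of class II genes, by 2.76. *CIITA* was already at 43.9, 44.2 and 43.2 CPM without IFNγ and reached 295, 293 and 299 CPM, so the groups were far apart although its fold was the smaller.

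Antigen presentation rose as a block, from different starting levels for the 2 classes. In class I presentation, 11 of 12 tested genes rose (median 1.72), with *HLA-G*, near 0 in both groups, not called, and *TAP2*, *TAPBP* and *CALR* not measured. *HLA-B* rose from 873 to 3048 CPM (1.80), *B2M*, the invariant light chain, from 1195 to 4301 CPM (1.85), and *TAP1*, a chain of the peptide transporter, from 76.7 to 948 CPM (3.63). In class II presentation, 14 of 14 tested genes rose (median 5.6, or 5.56 with the gene at 0 without IFNγ set at its bound). *CD74*, the invariant chain, was at 20.4, 20.2 and 20.1 CPM and rose to 2129, 2275 and 2228 CPM (6.77, SE 0.07), which put its level close to that of the class I heavy chains. *HLA-DRA* rose from 5.87 to 334.5 CPM (5.83) and *HLA-DMA*, the peptide editor, from 19.1 to 123 CPM (2.69). *HLA-DQA1* had 0 counts in the PD-L1si libraries and 150 with IFNγ, at least 54.3-fold higher against a floor of 3 counts over the group. HLA genes are highly alike, and their reads may be split between members.

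The immunoproteasome cuts proteins into class I peptides. In a list of its subunits, the activator genes *PSME1* and *PSME2* and *POMP*, 5 of 5 tested genes rose (median 2.07). The immune subunits *PSMB10* (3.23) and *PSMB9* (3.19) led, while *PSMB8* was not measured. Of the 3 constitutive catalytic subunits that the immune subunits replace, *PSMB7* rose by 0.53, a call lost without replicate 1 of PD-L1si. *PSMB6* and *PSMB5* had values of 0.42 and 0.14. Guanylate-binding proteins rose in 6 of 6 tested cases (median 4.83, or 4.56 with *GBP7* at its bound), *GBP1* from 48.1 to 1509 CPM. All 4 tested genes of the apolipoprotein L family rose (median 3.91), and so did all 5 tested genes of a list of PARP family members and *DTX3L* (median 1.80). Of the tested TRIM genes 9 of 10 rose, with *TRIM5* at 0.23, and of the PML body and SP100 genes 3 of 5, with *DAXX* at 0.06 and *SP140* at 0.23. In the antiviral list, which holds many genes better known as targets of type I interferon, 33 of 33 tested genes rose (median 2.44), from *HERC5* (0.92) to *IFITM1* (6.04), and *MX1* went from 50.2 to 400 CPM (2.99).

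Signals to immune cells also rose. All 3 CXCR3 ligands rose (median 8.10), *CXCL10* from 0.333 to 66.6 CPM (7.62). Of the 12 tested CC chemokines and cytokines, 11 rose (median 2.51, or 2.25 with *CCL7* at its bound), among them *CCL5* (2.76), *CCL2* (2.11), *IL15* (1.62) and its receptor chain *IL15RA* (3.05), while *LIF* had a value of 0.00. Of the neutrophil-attracting CXC chemokines, *CXCL2* (2.03) and *CXCL3* (1.01) rose, and *CXCL1* (0.49) and *CXCL8* (-0.61) were not called at levels of at most 1.27 CPM. Of the 12 tested checkpoint ligands 9 rose, including *CD274*. *TNFRSF14*, the ligand of BTLA, rose from 0.145 to 26 CPM (7.45), *PDCD1LG2*, which encodes PD-L2 beside *CD274*, from 0.055 to 7.06 CPM (6.88), and *LGALS9* from 2.45 to 115.5 CPM (5.56). *PVR* (-0.49), *CD276* (0.14) and *HHLA2* (0.23) were not called. Among adhesion molecules *ICAM1* rose from 165 to 863 CPM (2.39), and *VCAM1* (1.23), *CD40* (1.41) and *CD38* (6.63) rose too, while *ALCAM*, the ligand of CD6, fell by 0.69. Complement genes rose in 8 of 11 tested cases (median 1.62), with *SERPING1*, the C1 inhibitor, at 4.26 and *C3* at 1.92. Near-identical *C4A* and *C4B* had values of 0.92, not called, and 2.11.

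Death genes rose in 11 of 14 tested cases (median 1.41), with *CASP1* (3.17), *TNFSF10*, which encodes TRAIL (2.43), and *CASP8* (0.93) among them. The TRAIL receptors *TNFRSF10B* (-0.06) and *TNFRSF10A* (0.17) and *FAS* (0.29) were not called. In the NF-κB list 4 of 10 tested genes rose (median 0.43), *TNFAIP3*, a feedback inhibitor, by 1.88, and in the AP-1 and immediate early list 6 of 16 (median 0.33), *ATF3* by 1.81. These shares are 40% and 37.5% against 11% of all genes.

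**Figure D2:**
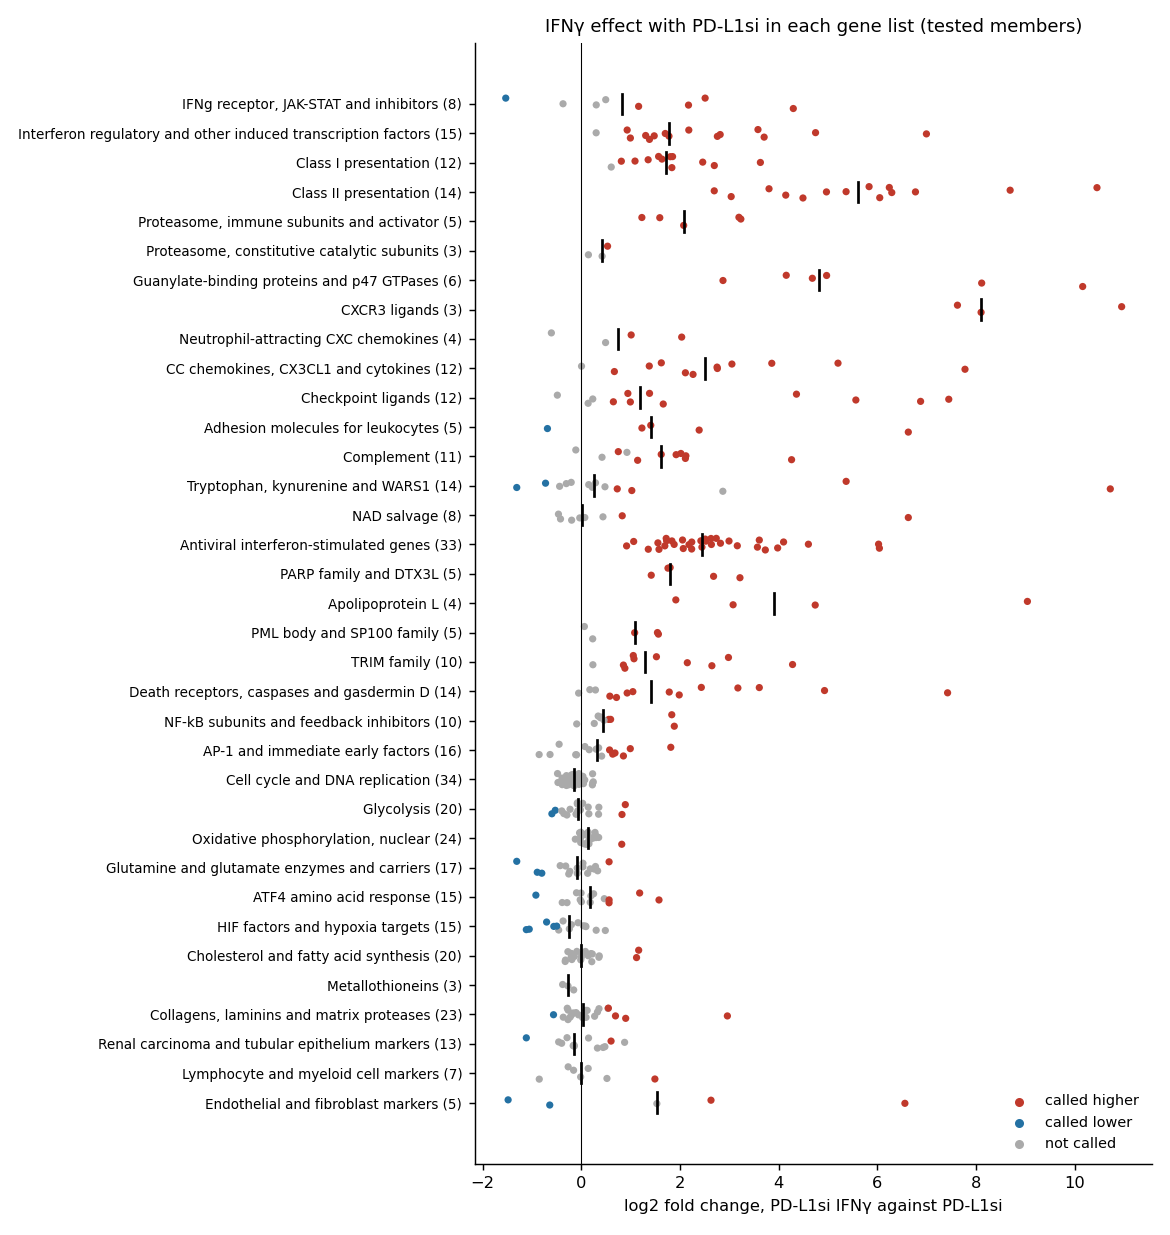
Log2 fold change of PD-L1si IFNγ against PD-L1si (horizontal axis) for each tested member of each gene list (rows, with the number tested), with a point for each gene and a black bar at the median. Class II presentation, guanylate-binding proteins and CXCR3 ligands lie furthest to the right with medians of 5.6, 4.83 and 8.10, while no cell cycle gene was called.

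Metabolic lists moved in single genes. In the tryptophan list 4 of 14 tested genes rose and 2 fell, which is 28.6% and 14.3% against 11% and 7.45% of all genes. Beside *IDO1*, *WARS1*, the tryptophanyl-tRNA synthetase, was at 36.4, 41.7 and 40.4 CPM and rose to 1582, 1676 and 1630 CPM (5.37, SE 0.06), and *KYNU* (1.02) and *TDO2* (0.73) rose. *KMO*, which turns kynurenine into 3-hydroxykynurenine, fell by 0.73, and *SLC7A5*, a carrier of large neutral amino acids that include tryptophan, fell from 838, 819 and 834 CPM to 331, 347 and 327 CPM (-1.31, SE 0.05). In NAD salvage, *NAMPT* (0.83) and the NAD-consuming *CD38* (6.63) rose of 8 tested and none fell, which is 25% higher against 11% of all genes. Of 20 tested glycolysis genes, the hexokinases *HK1* (0.89) and *HK2* (0.82) rose and *ENO2* (-0.60) and *PFKFB4* (-0.53) fell, with a median of -0.08. These 10% higher and 10% lower lie near the 11% and 7.45% of all genes tested, while *SLC2A1* and *ALDOA* were not measured. *HK2* was at 16.5, 17 and 14.9 CPM with PD-L1si and at 26.4, 30.2 and 28.9 CPM with PD-L1si IFNγ. Of 24 tested nuclear genes of oxidative phosphorylation *NDUFA9* (0.82) rose and none fell (median 0.13), which is 4.17% higher against the 11% of all genes. In the glutamine and glutamate list *PSAT1* (0.56) rose, and the carriers *SLC7A5*, *SLC7A11* (-0.89) and *SLC38A1* (-0.80) fell, of 17 tested. That is 5.88% higher and 17.6% lower, against 11% and 7.45% of all genes.

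In the hypoxia list 5 genes fell and none rose, which is 33.3% lower against 7.45% of all genes. *CA9*, a carbonic anhydrase and marker of ccRCC, was at 28.9, 30 and 28.4 CPM and fell to 12.2, 14.3 and 13.8 CPM (-1.12, SE 0.07), and *EPAS1*, which encodes HIF-2α, went from 198, 204 and 201.5 CPM to 116, 130 and 124 CPM (-0.70, SE 0.06). *LOX* (-1.06) and *CA12* (-0.56) were also among those that fell, *HIF1A* was at 0.49 and not called, and the median of the 15 tested was -0.24. Of the 34 tested cell cycle genes none was called in either direction (median -0.16), with values from -0.48 (*CCNE2*) to 0.24 (*CDKN1B*), and none of 3 metallothioneins was called (median -0.27). The cholesterol and fatty acid list had 2 rises of 20, *INSIG1* (1.16) and *STARD4* (1.12), a share of 10% near the 11% of all genes. The ATF4 list had 4 rises of 15 (26.7% against 11% of all genes), with *CEBPB* (1.57) and *MTHFD2* (1.18) leading. It had a fall of *TRIB3* (-0.92, 6.67% against 7.45%), and 3 members in place of 5 were called without replicate 1 of PD-L1si. Among 23 tested matrix genes *FN1* (0.90), *LAMA4* (0.69), *MMP7* (0.55) and *MMP2* (2.96) rose and *LAMA3* fell by 0.56. These shares of 17.4% higher and 4.35% lower are not far from the 11% and 7.45% of all genes. Past a log2 fold change of 1, 1 matrix gene was called in place of 5.

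Marker lists were used to look for other cells. The summed level of renal carcinoma and epithelial markers was 4675 to 4868 CPM with PD-L1si and 6220 to 6520 CPM with PD-L1si IFNγ, and 1 of 13 tested rose (*KRT8*, 0.60) and 1 fell (*CA9*), while the abundant *VIM* had a value of 0.48 and *PAX8* of 0.14. The part of this shift in the results was not tested. Lymphocyte and myeloid markers summed to 6.35 to 7.25 CPM and 13.3 to 15 CPM, of which *ITGAM* alone of 7 tested rose (from 4.19 to 11.8 CPM), and the defining marker *PTPRC* did not pass the count filter while *CD3D* was at 0. Endothelial and fibroblast markers summed to 32.7 to 37.7 CPM and 22.2 to 25.3 CPM, with *KDR* and *PECAM1* higher and *PDGFRB* and *ACTA2* lower of 5 tested. In RNA from a culture, fewer cells with a transcript and less of it per cell cannot be told apart.

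The study asked whether silencing PD-L1 changes the response to IFNγ, and this was tested as the difference between the IFNγ effect with PD-L1si and that with Cnsi in the same model. In the libraries labelled 786-O very few genes differed. The difference passed the threshold in 21 of 21209 genes (0.099%), with 8 more positive (0.0377%) and 13 more negative (0.0613%) with PD-L1si. At an unadjusted p under 0.05 there were 1722 genes, which is 8.12% of those tested. Over the 10817 genes with a mean of at least 5 CPM, the difference was within 0.5 in 10740 and its central 95% ran from -0.278 to 0.297. Its median SE was 0.0928, so that the SE was mostly well under the threshold of 0.5 in these genes. It was larger in genes with few counts without IFNγ, such as *CXCL10* (-1.27, SE 0.42) and *CXCL9* (1.99, SE 0.82). Neither was called, and such values do not show equal effects. The groups behind the IFNγ effects with PD-L1si and with Cnsi share no library. With Cnsi 2347 genes rose (11.1%) and 1567 fell (7.39%), together 18.5% of those tested. Of the genes that rose, 1866 did so with both siRNAs, 80% of those with PD-L1si and 79.5% of those with Cnsi, and of those that fell 1017, or 64.4% and 64.9%. No gene rose with PD-L1si and fell with Cnsi or the reverse. In genes chosen for a rise in the libraries labelled A498 (3141 genes), the median effect was 0.325 with PD-L1si and 0.349 with Cnsi, and in those chosen for a fall there (2858 genes) it was -0.195 and -0.213.

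**Figure D3:**
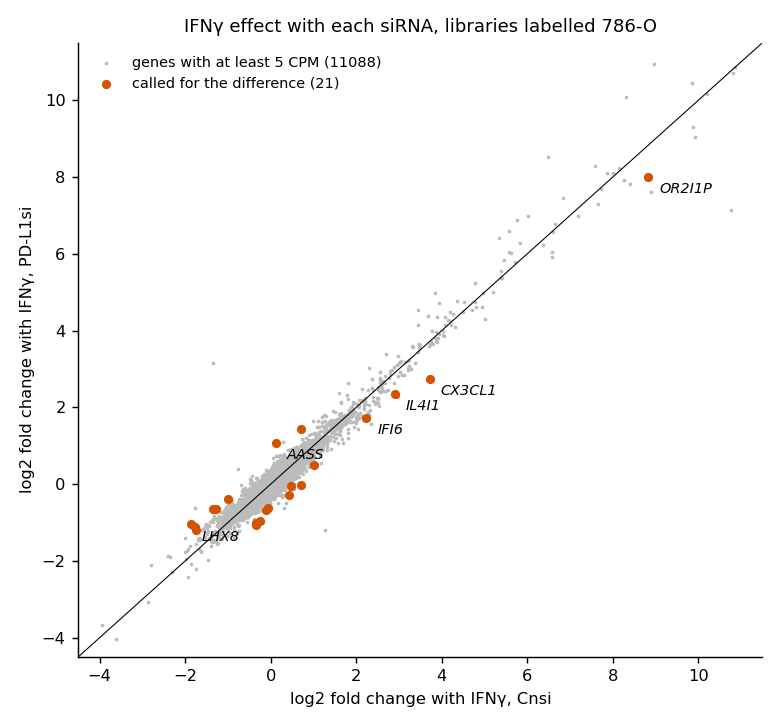
Log2 fold change with IFNγ in Cnsi cells (horizontal axis) and in PD-L1si cells (vertical axis) for genes with a mean of at least 5 CPM in a PD-L1si group (grey), with the 21 genes called for the difference in orange and the line of equal effects. Nearly all genes lie along the line, *CX3CL1* below it at 3.72 and 2.75.

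*CX3CL1*, a membrane-bound chemokine for T and natural killer cells, had the most negative difference of the protein-coding genes called. It was at 1.82, 2.18 and 2.16 CPM with Cnsi and at 28.4, 27.2 and 25.4 CPM with Cnsi IFNγ. With PD-L1si it was at 3.05, 2.88 and 3.18 CPM, and with PD-L1si IFNγ at 19.4, 22.7 and 19.3 CPM. It thus started higher and ended lower in the silenced cells, with no overlap at either end, and its rise was 2.75 with PD-L1si and 3.72 with Cnsi (difference -0.97, SE 0.15, adjusted p = 0.00432). *OR2I1P* also rose less (difference -0.83) but differed mainly at the start, with 2.21 CPM with PD-L1si and 1.35 CPM with Cnsi. It ended at 568 and 614 CPM. The interferon-stimulated *IFI6* (-0.52) and *IL4I1*, a secreted amino acid oxidase (-0.55), likewise rose less with PD-L1si and differed mainly at the start. *IFI6* was at 27.1 CPM with PD-L1si and 19.1 CPM with Cnsi and ended at 89.4 and 90.1 CPM. *IL4I1* started at 6.85 and 4.775 CPM and ended at 34.9 and 35.7 CPM. *CX3CL1*, *OR2I1P*, *IFI6* and *IL4I1* were the members of the 21 that rose by over 1.5 with both siRNAs.

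*LHX8*, a LIM-homeobox transcription factor, was at 15.4, 15.6 and 14.8 CPM with Cnsi and at 4.12, 3.85 and 4.65 CPM with Cnsi IFNγ, against 15.4, 16 and 17.1 CPM and 8.28, 7.76 and 7.39 CPM with PD-L1si. The starting levels overlapped and the end levels did not, so the fall was smaller with PD-L1si (-1.05 against -1.86, difference 0.81, adjusted p = 0.00353). *SPX* (difference 0.70) and *SLC19A2*, a thiamine carrier (0.62), also fell less with PD-L1si, and *KLHL4* (0.62) fell with Cnsi and was not called with PD-L1si (-0.38). *AASS*, the first enzyme of lysine breakdown, differed mainly at the start, with 7.13, 7.83 and 7.54 CPM with Cnsi and 4.06, 2.95 and 3.8 CPM with PD-L1si, and ended at 8.18 and 7.63 CPM on average (difference 0.96). *OLFML3*, a secreted matrix protein, rose more with PD-L1si (1.44 against 0.72). In the other direction, *SFR1* (-0.74) rose with Cnsi and was at -0.02 with PD-L1si, and *STEAP1* (-0.71) was called with neither siRNA (0.43 and -0.28). *PPP1R9A* (-0.71) and *KCTD12* (-0.69) fell with PD-L1si by 1.05 and 0.95 on the log2 scale and were not called with Cnsi. *KCTD12* differed mainly at the start, at 21.35 CPM with PD-L1si and 15.17 CPM with Cnsi, and ended at 11.04 and 12.65 CPM. *CX3CL1*, *LHX8* and *KLHL4* kept the call with each of the 12 libraries left out in turn, while *PPP1R9A*, *SLC19A2*, *STEAP1*, *AASS*, *KCTD12* and *OLFML3* lost it without 6 to 10 of them. The count of genes itself ran from 8 without replicate 3 of PD-L1si to 40 without replicate 1 of Cnsi IFNγ, and it was 26 without replicate 1 of PD-L1si. No list had more than 1 member called for this difference. *CHST2* is named by the paper among transcripts that appear to need PD-L1 for their regulation by IFNγ in A498 cells. In the libraries labelled 786-O its log2 fold change was -1.90 with PD-L1si and -2.37 with Cnsi. The difference of 0.47 (SE 0.09, adjusted p = 0.016, edgeR quasi-likelihood test) was short of the fold threshold.

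**Figure D4:**
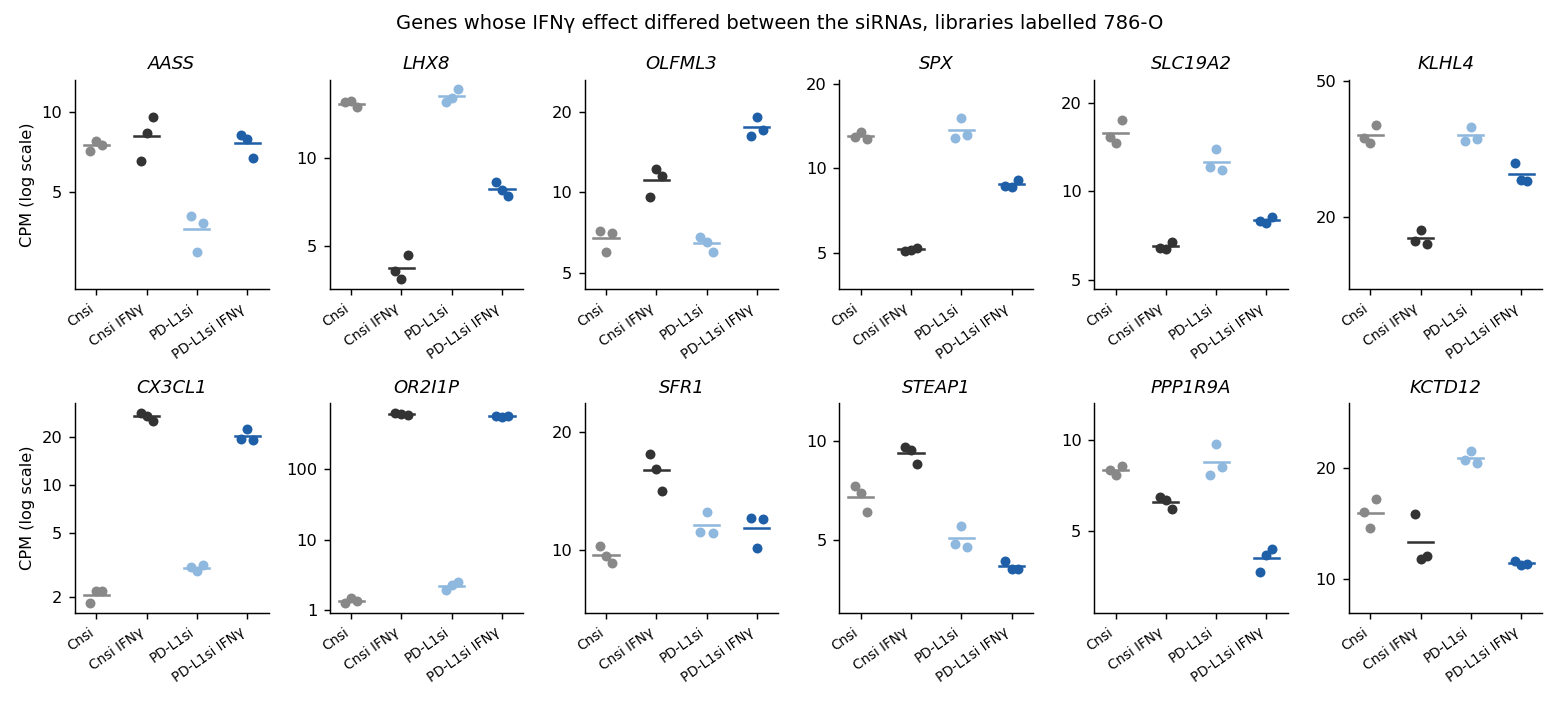
Level of the 12 protein-coding genes with the most positive (upper row) and most negative (lower row) difference of IFNγ effects between PD-L1si and Cnsi, in CPM on a log axis, in each of the 12 libraries labelled 786-O, with a point for each library and a line at the mean of the group. *LHX8*, *SPX* and *KLHL4* end higher with PD-L1si IFNγ than with Cnsi IFNγ, and *CX3CL1* ends lower.

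The same contrast in the libraries labelled A498, with the same siRNA, dose and time, was set beside these effects. Of 20916 genes tested there 3675 rose (17.6%) and 3333 fell (15.9%). Tested over the 17999 genes measured in both, the IFNγ effect with PD-L1si differed in 4667 genes (25.9%), being more positive in the libraries labelled 786-O in 2359 (13.1%) and more negative in 2308 (12.8%). This near-even split turned with the scaling and filter, to 2243 and 2461 genes with RLE and to 2049 and 2670 without a count filter. Of the genes that rose in the libraries labelled 786-O and were tested in both, 60.3% also rose in those labelled A498 and 4.91% fell, and of those that fell, 42.3% also fell and 6.56% rose.

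Interferon genes mostly rose less in the libraries labelled 786-O. In the antiviral list 27 of 33 genes had a smaller rise and 3 a larger one, with *MX1* at 2.99 against 5.88 (difference -2.90, SE 0.11). The difference was -0.53 for *IRF1*, -0.71 for *B2M*, -1.09 for *TAP1* and -4.13 for *CXCL10*. For *CD274*, the target of the siRNA, it was -0.56 (4.36 against 4.92), while the level with PD-L1si IFNγ was 31.4 against 27.7 CPM. The part of the silencing in this value was not tested. In class II presentation 9 of 14 genes were more negative and 1 (*HLA-DMB*) more positive. *HLA-DRB1* had 110, 160 and 128 counts with PD-L1si in the libraries labelled 786-O and 2586, 2990 and 2681 with IFNγ, whereas in those labelled A498 it had 0 counts in each PD-L1si library and 1928, 1671 and 1683 with IFNγ. The rise was 22.5-fold in the former and at least 2260-fold in the latter, while the levels with IFNγ were 99.6 and 84.6 CPM. *HLA-DRA*, *HLA-DPA1*, *HLA-DQB1* and *HLA-DRB5* also had 0 counts in the PD-L1si libraries labelled A498, with rises there of at least 4206, 2422, 1329 and 492-fold, against 56.9, 78.3, 75.6 and 41.2-fold in the libraries labelled 786-O. With PD-L1si in the latter, *HLA-DQB1* had only 1, 4 and 2 counts and *HLA-DRB5* 1, 1 and 2, so their folds are imprecise. *HLA-DRB5* reached 2 CPM there with IFNγ and passed the filter of 5 CPM only through the libraries labelled A498 (18.4 CPM).

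Among the 6 protein-coding genes with the most positive difference, *NRIP3*, *HAVCR2* and *PRKCQ* passed the filter of 5 CPM only through the libraries labelled A498. *APOBEC3G* was nearly silent with PD-L1si in the libraries labelled 786-O and had 64, 51 and 59 counts in those labelled A498, where it rose by 2.48. *CLDN2*, a pore-forming claudin of the proximal tubule, was at 20.4, 21.3 and 17.8 CPM without IFNγ and at 17.9, 20 and 20.9 CPM with it and was not called (-0.02, SE 0.09), while the libraries labelled A498 had a fall from 92.2 to 2.51 CPM (difference 5.16, SE 0.14). *HAVCR2*, which encodes TIM-3, rose by 3.12 from 0.112 to 1 CPM, against a fall of 2.95 on the log2 scale in the libraries labelled A498. *PLEKHS1* rose by 4.76 in the libraries labelled 786-O, from 0.326 to 8.87 CPM, and stayed at or below 5 counts in every PD-L1si library labelled A498. *NRIP3* and *PRKCQ* had 0 counts with PD-L1si in the libraries labelled 786-O and 36 and 24 with IFNγ, at least 13 and 8.68-fold higher, while their means in the libraries labelled A498 were 13.7 and 3.76 CPM with PD-L1si and 17.2 and 5.15 CPM with PD-L1si IFNγ.

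Several metabolic and growth lists also differed by label, to be read against 13.1% of all genes more positive and 12.8% more negative, and against 17.6% that rose and 15.9% that fell in the libraries labelled A498. In the cholesterol and fatty acid list 16 of 20 genes had a more positive effect in the libraries labelled 786-O and none a more negative one (median difference 1.17), and 16 fell in those labelled A498 (median -1.02 against 0.00183). *INSIG1* was at 1.16 against -0.995 and *HMGCS1* at 0.36 against -1.28. The ATF4 list went the other way, with 13 of 15 genes more negative (median difference -1.26), and 14 rose in the libraries labelled A498. *TRIB3* fell by 0.92 on the log2 scale and rose by 1.12 in those labelled A498, and *DDIT3* was at 0.46 against 2.57. In the hypoxia list 9 of 15 were more negative, *EPAS1* at -0.70 against 1.02 and *LOX* at -1.06 against 0.57, while *CA9* fell under both labels. Of the 34 cell cycle genes 13 were more positive and 4 more negative, the latter near the share of all genes, and 16 fell in the libraries labelled A498, with *CDK1* at -0.05 against -1.21 and *PLK1* at 0.07 against -0.90. Whether the sequencer had a part in these differences cannot be told apart from the line.

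**Figure D5:**
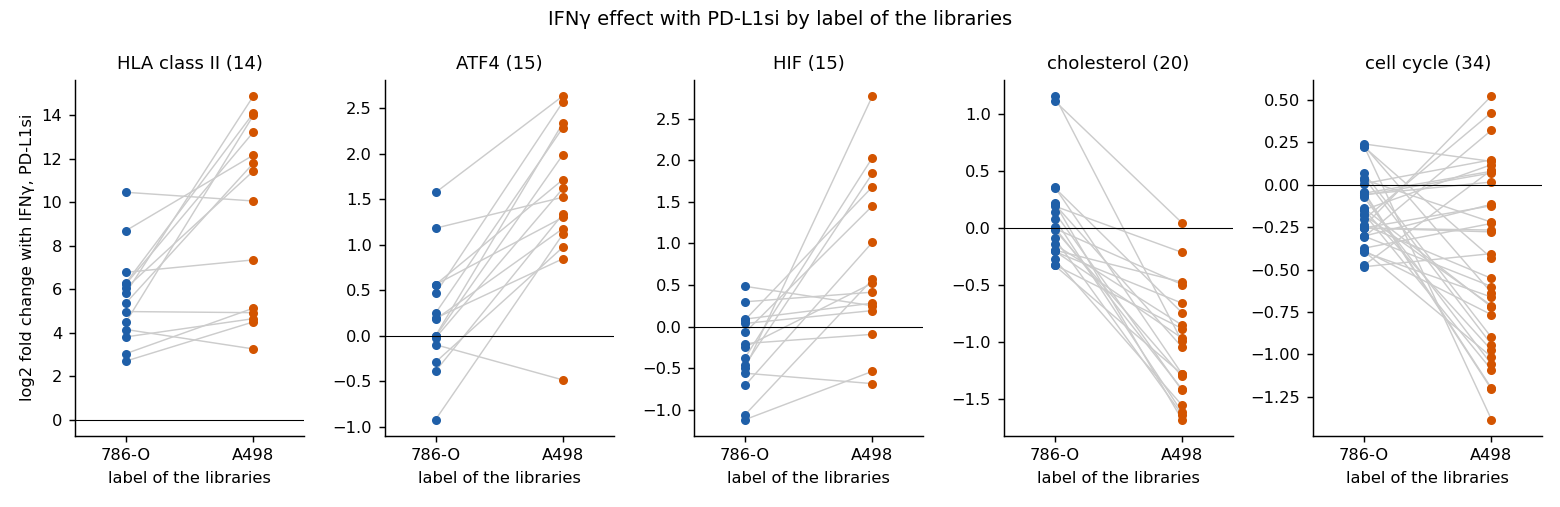
Log2 fold change with IFNγ in PD-L1si cells in the libraries labelled 786-O (blue) and A498 (orange) for the tested members of 5 gene lists, with a line joining the values of a gene (number of genes in brackets, fitted values for genes at 0 without IFNγ). Class II genes mostly lie higher on the right, ATF4 and hypoxia (HIF) genes mostly rise, and cholesterol genes mostly fall from left to right, from medians of 0.00183 to -1.02.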

How the data were processed

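RNA was sequenced from 24 libraries, and the results concern the 6 PD-L1si libraries labelled 786-O, with and without IFNγ. Per the labels and the methods of the study, the authors trimmed reads with Trimmomatic 0.36.6, aligned them to GRCh38 with HISAT2 2.1.0 and counted them on GENCODE genes with featureCounts 1.6.3, set to the forward strand. The kit is one that marks strand, usually in the reverse sense, so reads of genes that overlap on opposite strands could not be assigned with certainty. The deposited values are raw counts without normalization. GENCODE v44 supplied names and positions, 39148 rows matching by identifier and 173 not, and 0 columns had no sample. The authors' fold changes were not used.

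Genes whose counts summed to 10 or more in the 3 libraries of any group were tested in R 4.3.3 with edgeR 4.0.16 (TMM, robust quasi-likelihood fit in its legacy form, 12 libraries of a line in a joint model, all 24 for the difference by line). A gene was called at a Benjamini-Hochberg adjusted p under 0.05 over all genes tested and a log2 fold change beyond 0.5. Each SE is the absolute log2 value divided by the square root of the F statistic of its test. It is an approximation that can be too small for large changes with few counts in a group. The pipeline was tested on simulated data. The common coefficient of variation was 5.6%, and replicate pairs differed beyond sampling noise, the chi-square per degree of freedom being 1.97 to 24.3 in the libraries labelled 786-O. Named genes were *CD274*, the 12 protein-coding and 3 long non-coding genes with the largest rise and fall (called, mean of at least 5 CPM in the higher group, no overlap), the 6 most positive and negative of each difference (mean of at least 5 CPM in a group), and members of the lists, those furthest from 0 and those against the majority first. Other genes named were *UBD*, chosen for its overlap, *IL4I1*, chosen after its values were seen, and examples of unmeasured genes. Some genes of the lists are not reported here by name. The members and lists were chosen with earlier results of these data known. The alternatives were DESeq2 1.42.0, RLE scaling, other count filters, protein-coding genes only, other thresholds, the newer or non-robust fit, the compared groups only, a replicate block and the omission of each library.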

Additional observations from a re-analysis of the deposited data

Results flagged for a closer look

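The results below differed between groups by a test of the difference of the IFNγ effects itself (edgeR quasi-likelihood test, Benjamini-Hochberg). With groups of 3, no library was tested as an outlier.

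Between the siRNAs, in the libraries labelled 786-O, 21 genes differed. The difference on the log2 scale, PD-L1si minus Cnsi, was 0.96 for *AASS*, 0.81 for *LHX8*, 0.72 for *OLFML3*, 0.70 for *SPX*, 0.62 for *SLC19A2* and 0.62 for *KLHL4*. It was -0.97 for *CX3CL1*, -0.83 for *OR2I1P*, -0.74 for *SFR1*, -0.71 for *STEAP1*, -0.71 for *PPP1R9A* and -0.69 for *KCTD12*.

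Between the line labels, under PD-L1si, 4667 genes differed. The effect in the libraries labelled 786-O less that in those labelled A498 was 7.54 for *APOBEC3G*, 6.12 for *NRIP3*, 6.06 for *HAVCR2*, 5.41 for *PRKCQ*, 5.16 for *CLDN2* and 5.12 for *PLEKHS1*. It was -9.76 for *HLA-DRB1*, -9.31 for *HLA-DRA*, -8.06 for *HLA-DPA1*, -7.25 for *HLA-DQB1*, -6.70 for *HLA-DRB5* and -5.45 for *HLA-DPB1*. Where a group has 0 counts, as for *NRIP3*, *PRKCQ* and all of these HLA genes but *HLA-DPB1*, which had 1 count, the fitted difference depends on the prior count and is no bound. The libraries of the labels also differ in sequencer, whose part was not tested.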

How the results depend on the processing

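No named gene changed direction under any alternative run, but the balance of higher and lower calls turned in both differences. The IFNγ effect with PD-L1si was called in 3912 genes, in 8172 by the adjusted p alone and in 1851 past a log2 fold change of 1. The difference by siRNA was called in 21 genes, in 46 and 0 by these rules and in 47 without a count filter, against 1722 genes at an unadjusted p under 0.05 by edgeR. The difference by line went from 4667 to 7946 and 1924, the effect with Cnsi from 3914 to 8238 and 1878, and the effect with PD-L1si labelled A498 from 7008 to 12233 and 3204. These moves follow from the threshold or the genes tested. When libraries were left out singly, the counts ran from 3610 to 3949, 8 to 40, 4433 to 4720, 3559 to 3923 and 6637 to 6991 in the same order of results. The difference by siRNA was 10 and 13 genes without replicates 1 and 2 of Cnsi, 8 without replicate 3 of PD-L1si, 11 without replicate 1 or 2 of PD-L1si IFNγ and 40 without replicate 1 of Cnsi IFNγ, and the cause was not tested. The difference by line had 2359 genes higher and 2308 lower, against 2243 and 2461 with RLE, 2112 and 2343 with DESeq2 and 2049 and 2670 without a count filter. The difference by siRNA had 8 higher and 13 lower, against 24 and 22 by the adjusted p alone and 12 and 9 without replicate 2 of Cnsi IFNγ. DESeq2 called 3398 genes for the effect with PD-L1si and 30 for the difference by siRNA. Named genes kept their call for the IFNγ effect in 707 of 707 alternative values and for the difference by line in 403 of 403, while for the difference by siRNA 71 of 264 lost it. A gene that did not pass the filter of a run gave no value there. These genes were *CD274* and those picked for the largest called changes or differences in the same data. A kept call or direction was therefore likely beforehand and is no support for them. Counts of list members called moved in 39 alternative values and not in 766. Of the 39, 14 came from the adjusted p alone, where 21 cell cycle genes were called, and 11 from a log2 fold change over 1. The other 14 were changes of small counts, among them 1 or 2 cell cycle genes called in place of 0, and 1 neutrophil chemokine in place of 2 without replicate 1 or 2 of PD-L1si IFNγ. Replicates with the same number deviated together with correlations of only 0.0103 to 0.243, against -0.144 to 0.126 for other pairs, so the numbers were not taken as pairs. With the replicate block 3877, 18, 4683, 3869 and 6996 genes were called. The IFNγ effect cannot be given for genes at 0 in all 12 libraries, and near a base of 0 counts the depth sets only a lower bound.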
